A study of Mus musculus with 6 samples.

Results

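The genes described here encode the polymerases and the primase that copy the mouse genome at the replication fork: Pola1, Pola2, Prim1, Prim2, Pold1, Pold2, Pold3, Pole, Pole2 and Pole3. These 10 of 21887 protein-coding genes on the assembled chromosomes were taken by name. Peaks of E2F1 chromatin immunoprecipitation sequencing (ChIP-seq) were assigned to a gene when they lay inside its annotated span or within 1000 bp of it. The cells were NIH/3T3, an established line of mouse fibroblasts, with a stably integrated doxycycline-inducible construct for E2F1 or, as the control, an empty vector (EV). Both groups were kept in low serum for 48 hours and then given doxycycline for 12 hours, so the controls share the starvation and the drug. Each group had 2 libraries with a peak list each, and 2 further samples, input DNA of EV cells, were not analysed here. The promoter of the construct, any tag on its E2F1, the number of clones and the antibody are not given in the sources used here. Peak lists hold no expression values, so the fibroblast label was not checked against marker genes. The labels do not say whether replicates came from separate cultures, and the spread between them may be technical.

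E2F transcription factors bind the promoters of many genes needed for S phase and are held in check by the retinoblastoma protein in resting cells. DNA polymerase alpha travels with primase, which lays down the short RNA primers that every new strand needs, and it extends each primer into DNA. Polymerase epsilon then makes most of the leading strand and polymerase delta most of the lagging strand. Resting fibroblasts do not copy their DNA, and these enzymes are among the classic proteins of re-entry into the cell cycle.

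Promoter sequence from RefSeq (GRCm38.p6), from 250 bases before to 50 after an annotated start, was matched for 8 of the 10 genes, all but Prim2 and Pole. The E2F words searched, on either strand, were TTTCCCGC, TTTCGCGC, TTTGCCGC and TTTGGCGC, and then the same words without their first T, which contain the longer ones. Positions are counted from +1 at the annotated start, with no position 0. A match is a description of the sequence and not a mapped site. Windows of 30 bases, read 5′ to 3′ on the strand of the gene, are shown for 1 or 2 words in genes of each polymerase, alpha, delta and epsilon, with the word in capitals.

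Pola1, word beginning at -138, chrX:93632275-93632304, minus strand: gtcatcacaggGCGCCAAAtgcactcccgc
Pola1, shorter word at -121, chrX:93632258-93632287, minus strand: aatgcactcccGCGGGAAggccgggggcgg
Pold1, word at 40, chr7:44548766-44548795, minus strand: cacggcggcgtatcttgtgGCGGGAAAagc
Pold3, word at 18, chr7:100121467-100121496, minus strand: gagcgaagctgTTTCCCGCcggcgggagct
Pole2, word at 11, chr12:69228162-69228191, minus strand: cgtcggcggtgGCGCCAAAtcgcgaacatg

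The stretch of 150 bases just before the start is shown for 3 genes that differ in what it holds. Capitals mark a shorter E2F word or a CCAAT box, the motif of the factor NF-Y, on either strand. In Prim1 the E2F word and the CCAAT box overlap and make a single run of capitals, while Pole3 has an E2F word alone and Pold2 a CCAAT box alone.

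Prim1, chr10:128015065-128015214, plus strand: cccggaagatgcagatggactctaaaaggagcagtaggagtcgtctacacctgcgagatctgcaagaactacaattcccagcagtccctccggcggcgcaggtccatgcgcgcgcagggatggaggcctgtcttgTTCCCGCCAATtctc
Pole3, chr4:62525015-62525164, minus strand: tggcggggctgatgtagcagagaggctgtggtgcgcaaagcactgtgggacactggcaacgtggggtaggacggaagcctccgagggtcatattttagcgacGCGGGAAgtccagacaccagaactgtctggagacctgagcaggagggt
Pold2, chr11:5878257-5878406, minus strand: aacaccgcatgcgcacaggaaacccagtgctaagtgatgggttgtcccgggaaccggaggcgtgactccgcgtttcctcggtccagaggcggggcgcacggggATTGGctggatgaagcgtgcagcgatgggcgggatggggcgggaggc

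All 10 genes carried a peak in both E2F1 libraries, and none carried a peak in either EV library. Each E2F1 library thus counted 10 genes with a peak and each EV library 0. The groups did not overlap, and the mean difference was 10 genes with no spread within a group (n = 2). The exact two-sided permutation test over libraries gave p = 0.333, which is as low as 2 libraries against 2 can go, and the threshold of 0.05 is out of reach. Over all protein-coding genes, 36.9% and 38.2% had a peak in the first and second E2F1 library. The corresponding EV shares were 0.0366% and 0.407%. Overlapping peaks of both E2F1 libraries were found at 34.4% of protein-coding genes and at all 10 genes here. The 10 were chosen with earlier results of these data known. They leave out the subunit genes Pole4, which had such peaks, and Pold4, which had no peak. At Prim2, Pold1, Pole, Pole2 and Pole3 the summits also lay within 1000 bp of a boundary of another gene. When only peaks at or above their list's median score counted, the shares were 17.1% of protein-coding genes and 9 of the 10. The gene lost there was Pole3, whose score of 161 in replicate 1 lay below the list median of 293.

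The EV lists were short as a whole, with 70 and 358 peaks against 7836 and 8027 in the E2F1 lists. Weaker immunoprecipitation and less E2F1 at these genes cannot be told apart in EV cells. Each list holds only peaks with a −log10 p of at least 10.0, so a gene without a listed peak may still carry weaker signal. In EV replicate 2 the nearest peak was at least 835 kb from each gene. In EV replicate 1 it was at least 5337 kb away, and 5 of the genes were on chromosomes without a listed peak.

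Values below are the authors' fold enrichment of a peak, the ratio of the read pileup at its summit to the local background, with its rank by fold in the list, replicate 1 first. Positions are those of the peak in E2F1 replicate 1, on GRCm38. Pileup and background in reads were solved from the deposited fold and p-value. They are not scaled for depth. The lowest background of a list, its level away from raised regions, came to 1.85 and 1.86 reads for E2F1. For EV it came to 2.20 and 1.18 reads. The median background of a list was 3.92 and 2.83 reads for E2F1, and 11.5 and 5.09 reads for EV. The percentile of a peak is the share of its list with a lower fold.

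In the alpha-primase complex, Pola1, which encodes the catalytic subunit of polymerase alpha, had the strongest peak. Its fold was 28.7 in E2F1 replicate 1 (rank 301) and 40.6 in replicate 2 (rank 379), from pileups of 84 and 115 reads. The peak spanned chrX:93631713-93632607 in replicate 1, at one boundary of a gene of 327622 bp, and both libraries placed the summit on the same base. No other peak was listed anywhere in this long gene. Its promoter window held 4 shorter E2F words, and the centre of the one shown at -121 was 38 bp from the summit.

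Pola2, for the regulatory B subunit of polymerase alpha, had folds of 23.6 and 28.6 (ranks 564 and 926) at chr19:5963538-5964511. Prim1, for the catalytic subunit of primase, had folds of 27.7 and 26.5 (ranks 350 and 1088) at chr10:128014955-128015857. Its summits lay 12 bp and 10 bp from the centre of the E2F word in the overlapping run shown above, the closest pairing of a summit and a word in replicate 1. Prim2, for the large primase subunit that holds an iron-sulfur cluster, was the weakest of the complex. Its folds were 14.3 in each library (ranks 1887 and 3082), at chr1:33669321-33670719. A long non-coding gene, 1700001G17Rik, begins 15 bp beyond the boundary of Prim2, and its own boundary was 75 bp and 59 bp from the summits. A peak there cannot be given to either gene alone, and the same holds at Pole, Pole2 and Pole3, whose neighbours are named below.

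For polymerase delta, Pold2 and Pold3 had high folds and the catalytic subunit gene Pold1 did not. Pold2 encodes the B subunit that bridges the catalytic subunit and the others. It had folds of 34.1 and 47.2 (ranks 164 and 241) at chr11:5877673-5878364, with pileups of 153 and 204 reads. Its mean percentile of 97.5 was the highest of the 10 genes. Its promoter window held neither the longer nor the shorter E2F words, which were matched exactly. Near matches were not counted, and the stretch shown above holds gcggga, a shorter word without its last base. The window held 3 CCAAT boxes, the last of them at the summit of replicate 2 to the nearest base.

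Pold3, for the subunit that carries a PCNA-binding motif, had folds of 39.8 and 32.8 (ranks 90 and 685) at chr7:100120584-100121707. The summits of the libraries were 161 bp apart, the widest gap of the 10 genes. In replicate 2 the summit was 10 bp from the centre of the E2F word shown above and in replicate 1 it was 171 bp away. Pold1, for the catalytic and proofreading subunit, had folds of 15.4 and 13.3 (ranks 1645 and 3351) at chr7:44548271-44548889. These are below both values of Pold2 and both values of Pold3 in the respective lists. The protein-coding gene Nr1h2 lies 800 bp from Pold1, and its boundary was 924 bp and 906 bp from the summits.

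For polymerase epsilon, Pole and Pole2 ranked high, and the small histone-fold subunit gene Pole3 ranked below them in both libraries. Pole, for the catalytic subunit, had folds of 27.6 and 23.6 (ranks 353 and 1370) at chr5:110285949-110286934. The protein-coding gene Pxmp2 ends or begins 96 bp from Pole, and its boundary was 251 bp and 195 bp from the summits. Pole2, for the B subunit, had folds of 22.5 and 48.7 (ranks 653 and 215) at chr12:69227867-69228234. Its pileups of 117 and 142 reads differed less than its folds, since the local background was 4.24 reads in replicate 1 and 1.94 in replicate 2. Pole2 overlaps Klhdc1, a gene on the other strand, by 477 bp at this end, and the summits lay inside both.

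Pole3 encodes a histone-fold protein that pairs with Pole4 in the polymerase and with Chrac1 in a chromatin remodeller. It had the lowest folds of the 10 genes, 6.79 and 13.2 (ranks 5548 and 3399), at chr4:62524540-62525333. The pileups were 32 and 58 reads. In replicate 1 this was the only one of the 20 peaks below its list's median fold of 9.19, and in replicate 2 it was above the median of 11.3. The summits lay outside the gene, in the 289 bp between Pole3 and 4933430I17Rik, 168 bp and 123 bp from the boundary of the latter. They were 122 bp and 167 bp from the boundary of Pole3, so in replicate 2 the neighbour was nearer.

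**Figure D1:**
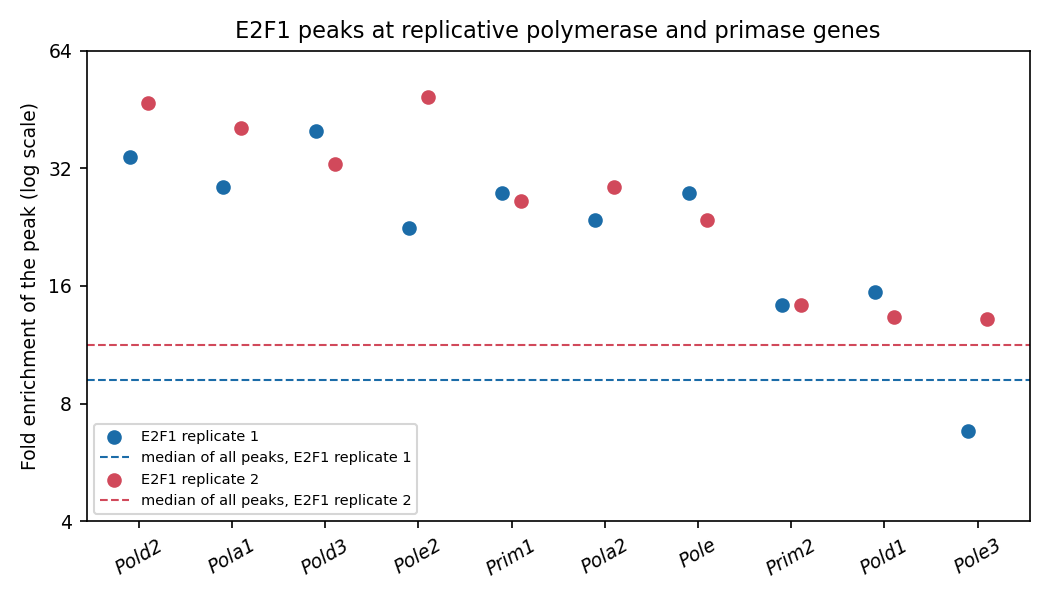
Fold enrichment (log axis) of the peak at each of the 10 genes, in order of mean percentile, with a point for each E2F1 library and dashed lines for the median fold of each list. The EV libraries listed no peak at these genes. Only Pole3 in replicate 1, at 6.79, lies below its dashed line.

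By fold, the genes stood high in the lists but not at the top. The median percentile of the 10 was 94.1 in replicate 1 and 87.5 in replicate 2, and 7 and 4 of them reached the 90th percentile. Averaged over the libraries, the median of the 10 genes was 90.8, beside 56.1 over the 7521 protein-coding genes with overlapping peaks, each taken at its strongest peak. Of those 7521 genes, 8.68% were at or above 90.8. These shares describe the lists and carry no test.

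The order from high to low mean percentile was Pold2, Pola1, Pold3, Pole2, Prim1, Pola2, Pole, Prim2, Pold1 and Pole3. The ranges over the libraries of neighbours in this order overlapped except at 3 steps. Pold2 stood above Pola1, Pole above Prim2, and Pold1 above Pole3. The step from Pole, at 89.2, to Prim2, at 68.7, was wide, and it set 7 genes of high fold apart from 3 of lower fold. Each complex had members on both sides of it.

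**Figure D2:**
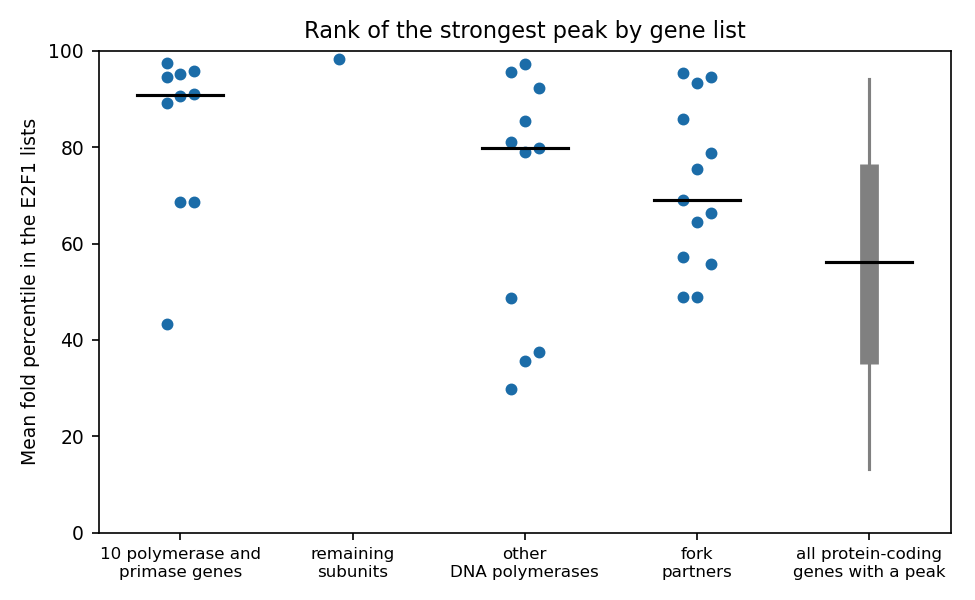
Mean percentile of fold over the E2F1 libraries for each gene with overlapping peaks (points), with the median as a bar, for the 10 genes and the other gene lists. The rightmost symbol gives the 5th to 95th percentile (thin line), quartiles (thick line) and median of 7521 protein-coding genes. The 10 genes have a median of 90.8, against 56.1 for all.

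Folds in the libraries were of similar size. Replicate 2 had the higher fold at 5 of the 10 genes and at 70.4% of the 7065 overlapping peaks. These are peaks of replicate 1, each paired with the overlapping replicate 2 peak of highest fold. A replicate 2 peak can thus count more than once, and the choice favours replicate 2 where several overlap. The median log2 ratio of replicate 2 to replicate 1 was 0.14 over the 10 genes and 0.34 over all overlapping peaks. By gene it ran from -0.28 for Pold3 to 1.11 for Pole2, and Pole3 followed Pole2 at 0.95. All but these 2 genes were within 0.50 of equal folds. For the solved pileup, the median log2 ratio was 0.23 over the 10 genes and 0 over all overlapping peaks, and 8 of the 10 genes had more reads in replicate 2. The share of all overlapping peaks with more reads in replicate 2 was not computed, and the reads are not scaled for depth. Across the 10 genes the Pearson correlation of log2 fold between the libraries was 0.77 and the Spearman correlation of fold 0.66, beside a Spearman correlation of 0.70 over all overlapping peaks. Genes are not replicates, and these correlations are descriptions.

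**Figure D3:**
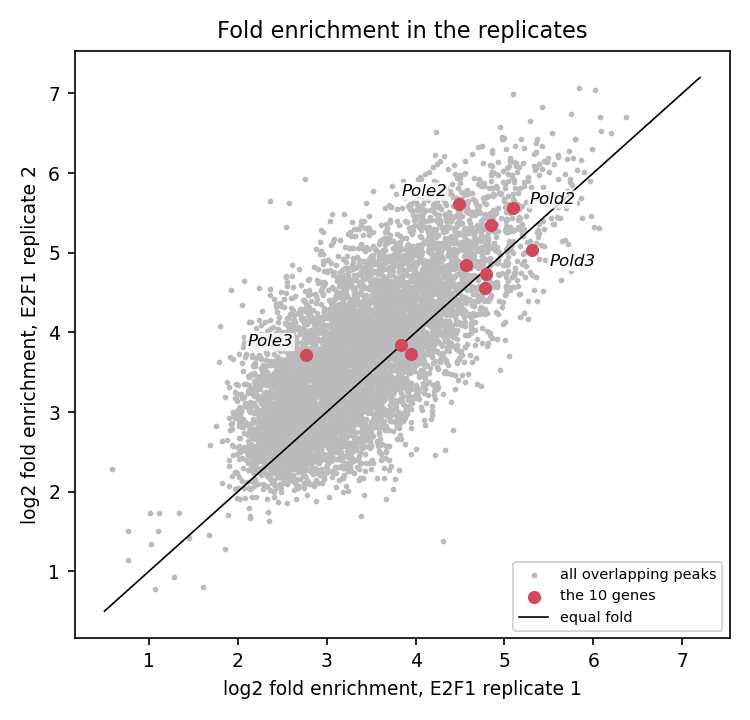
Log2 fold enrichment in E2F1 replicate 1 against replicate 2 for the 7065 overlapping peaks (grey) and the 10 genes (red), with a line of equal fold. Of the 10, Pole2 and Pole3 lie farthest above the line, at log2 ratios of 1.11 and 0.95.

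Each of the 10 genes had exactly 1 peak per E2F1 library, and each peak sat at an end of its gene. The 20 summits were 22 to 194 bp from the nearer boundary of the span. A single peak was the usual case, at 92.6% and 93.4% of all protein-coding genes with a peak in replicates 1 and 2. In the 8 genes with a known start, that end was the 5′ end. The summit lay downstream of the annotated start at 5 of the 8 in each library, with medians of 107 bp and 29 bp downstream. A summit within 1000 bp of a start was found for 6123 and 6318 protein-coding genes in replicates 1 and 2. Any peak was found for 8085 and 8364, so a place near a start was common in these lists. The share of peaks at a gene end was not computed over all genes. Over the 6123 and 6318 genes, the medians were 128 bp and 55.5 bp, and 71.2% and 62.5% of summits lay downstream. The summits of Pola1, Prim1 and Pole3 were upstream, at 79 bp in both libraries for Pola1, 24 bp and 22 bp for Prim1, and 122 bp and 167 bp for Pole3. For Pola1 the start used is an inner one, inside the outer boundary of the span.

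Summits of the libraries were a median of 31.5 bp apart at the 10 genes and 55 bp over all overlapping peaks. Widths ran from 368 bp for Pole2 to 1399 bp for Prim2, both in replicate 1. The median width of the 10 peaks was 899 bp in replicate 1 and 868 bp in replicate 2, close to the medians of the lists, 938 bp and 814 bp.

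**Figure D4:**
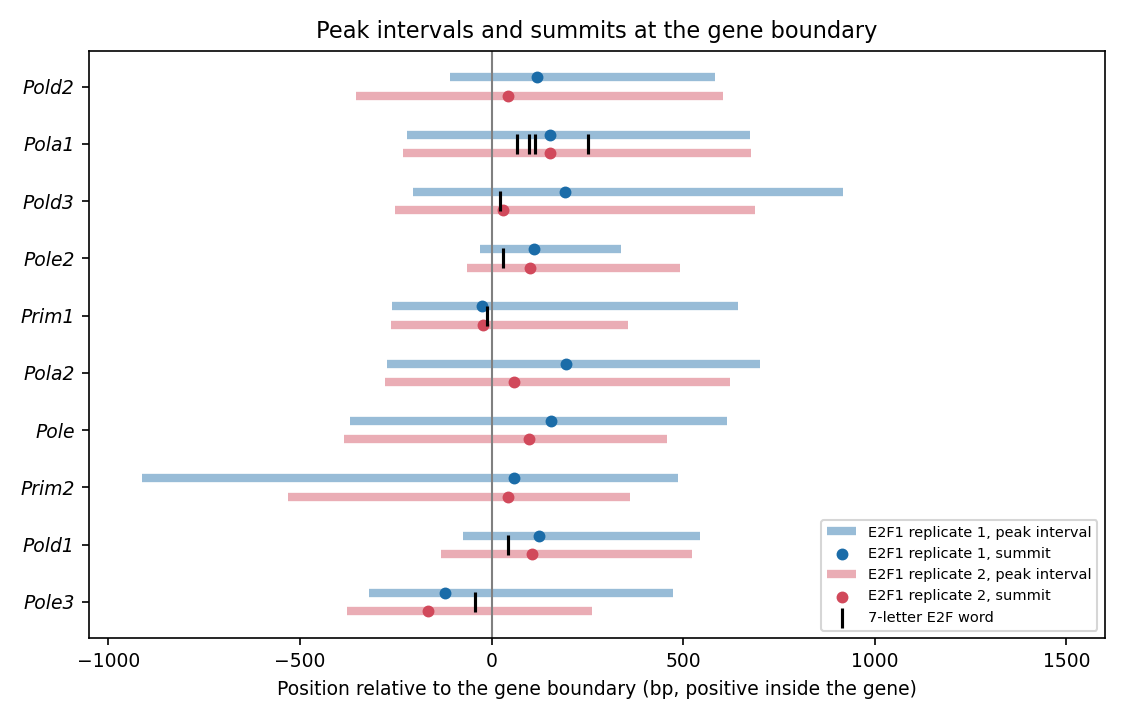
Peak intervals (bars) and summits (points) of both E2F1 libraries at the 10 genes, as distance in bp from the gene boundary, positive inside the gene. Black ticks mark shorter E2F words, searched only in the 300 base promoter windows of 8 genes. Every interval spans the boundary, and summits lie within 194 bp of it.

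Of the 8 promoter windows, 4 held a longer E2F word, beside 2.26% of all 32851 windows in the table and 5.03% of the 7993 windows of protein-coding genes with overlapping peaks. The genes were Pola1, Pold1, Pold3 and Pole2. A shorter word was present in 6 of the 8, with Prim1 and Pole3 added, beside 9.57% and 20.1% of those windows. Pola2 and Pold2 held neither. The CCAAT box was found in 3 of the 8 (Pola1, Prim1 and Pold2) and in 37.4% and 36.8% of those windows. The cell cycle homology region TTTGAA, a motif of genes expressed late in the cycle, was in 0 of the 8, beside 17.9% and 11.4%. The number of CpG dinucleotides per window ran from 13 in Prim1 and Pole2 to 31 in Pola1, with a median of 24.5. The median was 24 over protein-coding genes with overlapping peaks and 6 over the other protein-coding genes.

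The accessory subunits outside the 10 genes went in opposite ways. Pole4, the histone-fold partner of Pole3, had a peak in both E2F1 libraries with folds of 41.1 and 51.0 (ranks 77 and 185), above all 10 genes in each library. Its promoter window held the longer word at -43, chr6:82652890-82652919 on the minus strand, in the stretch ctctacccggcGCGGGAAAggggccgaaat. Pold4, the smallest delta subunit, had no peak in any of the 4 lists. Its nearest E2F1 peaks were 15533 bp and 16106 bp away in replicates 1 and 2, and its promoter window held no E2F word.

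Among 15 other DNA polymerase genes, those of repair, lesion bypass, mitochondria and lymphocytes, 11 had overlapping peaks of both E2F1 libraries. Such peaks were found at 34.4% of all protein-coding genes. Polg2 was listed in replicate 1 alone, Poll and Polm in replicate 2 alone, and Dntt, the lymphocyte terminal transferase, in neither. Among 14 fork partners, such as the RPA subunits and the fork protection proteins, 13 had them, and Ten1 was listed in replicate 2 alone. Median mean percentiles were 79.8 and 68.9 for the genes with overlapping peaks in these lists, beside 90.8 for the 10 replicative genes. Like the 10 genes, none of the genes in these lists had a peak in an EV library. Over all protein-coding genes the EV shares were only 0.0366% and 0.407%.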

How the data were processed

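Per the submitters' processing notes, the tools were FastQC, Trimmomatic, Bowtie2, MACS2 and ChIPseeker on build mm10, with no versions. The control of each list is not given in the sources used here. Each library has its own deposited list in narrowPeak layout. The deposited score follows the −log10 q-value, multiplied by 10 and cut to a whole number. The deposited fold is a ratio of pileup to local background at the summit, and the deposited −log10 p-value and q-value belong to each peak. mm10 corresponds to GRCm38, the assembly of the RefSeq gene table (GRCm38.p6) and promoter table used here.

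Peaks were assigned to gene spans with 1000 bp added at each end, by overlap of at least 1 bp, the same overlap that made peaks of both lists shared. Pileup and background were solved from fold, as pileup plus 1 over background plus 1, and from p, as a Poisson upper tail. This succeeded for 95.7% to 99.99% of peaks by list. The solver was tested only on data simulated with the same formula, so that test cannot show that the deposited values follow it. The simulated pileups did not reach the highest of the 10 genes. Read totals were not used, so precision is known only through these reads. Groups came from the sample titles. The single test was the exact permutation test over 2 and 2 libraries. The members, gene lists and E2F words were chosen with earlier results of these data known, and the words without their first T after the promoters had been searched. Named genes were all members, the subunits Pold4 and Pole4, genes of the other lists lacking overlapping peaks, and protein-coding neighbours with a boundary within 1000 bp of a summit. The non-coding neighbour of Prim2 was named after its position was seen. Python 3.11.15, pandas 2.3.3, numpy 2.4.6, scipy 1.17.1 and matplotlib 3.10.9 were used.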

Additional observations from a re-analysis of the deposited data

How the results depend on the processing

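All 25 alternatives over 4 results kept the direction, the side of the threshold or the size within the spread, but some could not have done otherwise. The side of the threshold was fixed in advance, since the exact tests cannot pass it with so few libraries. Taking all peaks of a gene, or only summits within 1000 bp of a boundary, left the same peaks in use. With any library left out, the count of genes with a peak and the shared count could only stay as they were. With 2500 bp added, no E2F1 peak could be lost, and the nearest EV peak was at least 835 kb away. These alternatives say nothing on how stable the results are. With no distance added to the gene span, 10 genes in each E2F1 library and 0 in each EV library had a peak. The same held with summits in place of intervals. In these settings only the E2F1 counts could have fallen. With peaks below their list's median score left out, the mean difference was 9.5 and the shared count 9. Reciprocal overlap of 50% and summits within 200 bp left 10 genes shared. A summit within 250 bp of an annotated start, an alternative chosen after seeing the data, held for all 8 genes with a start. The replicate block gave the same difference of 10, and the exact test that flips the sign of each pair gave p = 0.5, the lowest that 2 pairs allow. As counts did not vary within a group, they cannot show whether replicate numbers pair the samples. The median mean percentile ran from 87.5 to 94.1 in single lists and was 91.4 by score and by −log10 p. The filter at a −log10 p of 10.0 and the absence of read totals limit every statement on EV cells to listed peaks.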

Other observations

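The order of the genes by fold differed between the libraries, and pileup and local background did not differ alike. Pole2 had rank 653 in E2F1 replicate 1 and rank 215 in replicate 2, with 117 and 142 reads over a background of 4.24 and 1.94 reads. Pold3 had ranks 90 and 685, with 177 and 197 reads over 3.47 and 5.03. Pole had fewer reads in replicate 2, 117 against 165, over a background of 4.00 against 5.01. At Pole3 the background was 3.86 and 3.48 reads, and the pileup 32 and 58. Over the whole lists the median background was 3.92 reads in E2F1 replicate 1 and 2.83 in replicate 2. Why the backgrounds differ was not tested.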
